A study of Mus musculus with 8 samples.

Results

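The genes described here are 42 very long genes, many of which span common fragile sites, read in mouse embryonic stem (ES) cells after cisplatin. Of the 42, 39 had a probe set annotated to them alone, out of 17098 genes read on the arrays, and Immp2l, Nbea and Magi2 were not analysed here. A gene's probe set was chosen by its mean over the 8 arrays, the brightest being taken, and genes with a mean log2 value of at least 5 (17 genes) were set apart from dimmer ones (22 genes). The gene list itself was drawn up with earlier results of these arrays in view, so its counts describe the list and are no independent evidence of a direction. At the split, the dimmest of the 17 were Auts2 at 5.23 and Magi1 at 5.67, and the brightest of the 22 were Ptprg at 4.72 and Tbc1d5 at 4.48. Auts2 passed through its control arrays, since its mean was 4.92 with cisplatin and 5.54 in the controls.

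The samples were 4 treated for 8 h with 2.5 µM cisplatin, a platinum drug that crosslinks DNA, and 4 given the solvent dimethyl sulfoxide for 8 h, each on 1 array. All 8 were HPRT deficient ES cells of strain C57BL/6 at passages 19 to 22, moved from feeder layers to gelatin before the experiment. Both groups carry replicate numbers 3 to 6. Whether these came from separate cultures is not stated by the labels, and a p-value here then covers no more than how far these samples differ, possibly for technical reasons. The comparison addressed how transcripts of these cells change under cisplatin, and values are RMA log2 expression.

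Common fragile sites are stretches of chromosome that gap or break when DNA replication is slowed, and many of them lie inside single genes of great length. Such genes consist almost wholly of intron, so a very long primary transcript yields an mRNA of ordinary size, and RNA polymerase needs hours to travel from the start to the end. Several of these genes encode adhesion and synapse proteins and are known chiefly from brain, while others encode transcription factors, trafficking proteins and enzymes used in many cell types. The RefSeq spans of the 39 genes, in the mouse assembly GRCm38.p6, ran from 281 kb for Ehbp1 to 2390 kb for Dmd, with a median of 664 kb.

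RefSeq promoter sequences of 300 bases, of which 250 lie before a listed start, were found for 29 of the 39 genes. The 5 below belong to genes that fell strongly (Cdkal1 and Pard3) and to the longest genes with a mean of at least 5. These longest genes, Dmd and Macrod2, moved less. The promoter of Bnc2, the gene with the largest fall, is not printed. For Pard3 and Macrod2 the listed start farthest from the gene's end is printed. Each is given 5′ to 3′ in lower case, with every CG dinucleotide in capitals. Dmd is given at both of its listed starts, 1 near the far end of the gene and 1 deep inside it.
Cdkal1 (chr13:29855624-29855923, minus strand, GRCm38.p6): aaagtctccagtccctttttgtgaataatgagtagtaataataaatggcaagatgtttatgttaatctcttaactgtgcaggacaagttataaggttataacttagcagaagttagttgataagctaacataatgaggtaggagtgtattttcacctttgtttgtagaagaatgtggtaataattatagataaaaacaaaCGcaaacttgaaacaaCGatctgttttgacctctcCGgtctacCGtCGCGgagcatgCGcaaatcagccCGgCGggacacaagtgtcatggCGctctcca
Pard3 (chr8:127063806-127064105, plus strand, GRCm38.p6): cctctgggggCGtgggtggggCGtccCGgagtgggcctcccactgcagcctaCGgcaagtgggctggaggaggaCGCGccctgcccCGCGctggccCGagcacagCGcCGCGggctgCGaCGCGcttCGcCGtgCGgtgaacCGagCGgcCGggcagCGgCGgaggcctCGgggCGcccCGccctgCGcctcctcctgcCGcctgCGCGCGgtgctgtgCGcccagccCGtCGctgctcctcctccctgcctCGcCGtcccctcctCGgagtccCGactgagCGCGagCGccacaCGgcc
Dmd, distal start (chrX:82948620-82948919, plus strand, GRCm38.p6): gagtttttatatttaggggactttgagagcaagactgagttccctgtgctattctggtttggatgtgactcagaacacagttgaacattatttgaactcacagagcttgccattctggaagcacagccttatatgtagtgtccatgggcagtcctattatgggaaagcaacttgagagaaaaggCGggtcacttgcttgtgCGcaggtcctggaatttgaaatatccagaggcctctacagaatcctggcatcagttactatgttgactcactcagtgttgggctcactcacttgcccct
Dmd, internal start (chrX:85048045-85048344, plus strand, GRCm38.p6): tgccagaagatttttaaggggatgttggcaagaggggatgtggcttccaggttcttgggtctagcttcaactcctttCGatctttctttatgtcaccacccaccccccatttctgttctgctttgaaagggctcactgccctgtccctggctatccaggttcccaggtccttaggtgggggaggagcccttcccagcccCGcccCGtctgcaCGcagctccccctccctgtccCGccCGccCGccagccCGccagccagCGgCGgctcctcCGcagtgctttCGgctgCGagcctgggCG
Macrod2 (chr2:140395180-140395479, plus strand, GRCm38.p6): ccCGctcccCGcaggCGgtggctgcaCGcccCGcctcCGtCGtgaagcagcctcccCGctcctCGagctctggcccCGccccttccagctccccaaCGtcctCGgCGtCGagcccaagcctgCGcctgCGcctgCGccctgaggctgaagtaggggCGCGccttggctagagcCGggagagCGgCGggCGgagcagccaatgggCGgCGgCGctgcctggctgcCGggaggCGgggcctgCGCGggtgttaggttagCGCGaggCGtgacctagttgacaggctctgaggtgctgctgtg

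The motif counted was CG, which reads the same on both strands. The Pard3 promoter held 42, the Macrod2 promoter 33, the internal Dmd promoter 14, the Cdkal1 promoter 10 and the distal Dmd promoter 2. Of the 32851 promoters in the table, 94.6% held at least 1 CG, and the median was 7. At least 42 were found in 3.03%, at least 33 in 8.56%, at least 14 in 36.3%, at least 10 in 43.5% and at least 2 in 85.9%. From these starts to the gene's end the distance was 664 kb for Cdkal1, 548 kb for Pard3, 1998 kb for Macrod2 and 2256 kb for the distal Dmd start, but 157 kb for the internal one. Dystrophin is known to be made in several isoforms from internal promoters, and the arrays do not show which start the cells used.

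With cisplatin, many of the long genes fell together. The transcription factor gene Bnc2 was 2.66-fold lower, the zinc finger gene Zfp407 2.46-fold, the tRNA-modifying enzyme gene Cdkal1 2.16-fold and the polarity gene Pard3 2.03-fold. By limma, 20 of the 39 genes were lower at an adjusted p under 0.05, where 7.69% of all genes were, and 7 of them by at least 2-fold, where 0.187% of all genes were. None was higher, either at an adjusted p under 0.05 or at an unadjusted p under 0.05, whereas 11.6% of all genes were higher. The ordinary t statistic also gave 0 higher. The change had a median of -0.30 over the 39 genes and of 0.01 over all genes, both on the log2 scale. Changes below 0 were found for 34 of the 39 genes and for 7948 of all 17098 genes. The 4 cisplatin arrays lay below all 4 control arrays for 19 of the 39 genes, which held for 10.1% of all genes. Since these arrays hold bulk RNA, fewer cells of a kind and less RNA per cell cannot be told apart.

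Brightness and the outcome went together. Of the 17 genes with a mean of at least 5, 16 were lower, with a median change of -0.56, where 13.8% of all genes of that brightness were lower. Of the 22 dimmer genes 4 were lower, with a median of -0.10, where 2.24% of all dim genes were. Array background gives the scale for this. Background probes of 25 bases with 24 G or C had a mean of 3.10, and those with 25 had 4.89. Those with fewer G or C were dimmer, for example 2.24 with 12 and 2.53 with 18. The level of 3.10 is therefore a high one, and below background here means only below 3.10. Of all 17098 genes, 5359 lay below 3.10 in both groups. In both groups 11 of the 39 genes lay below 3.10, namely Csmd1, Ctnna3, Dpyd, Il1rapl1, Lrp1b, Lsamp, Mad1l1, Nfia, Ptprd, Rbms3 and Sox5, and none of these passed the test.

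**Figure D1:**
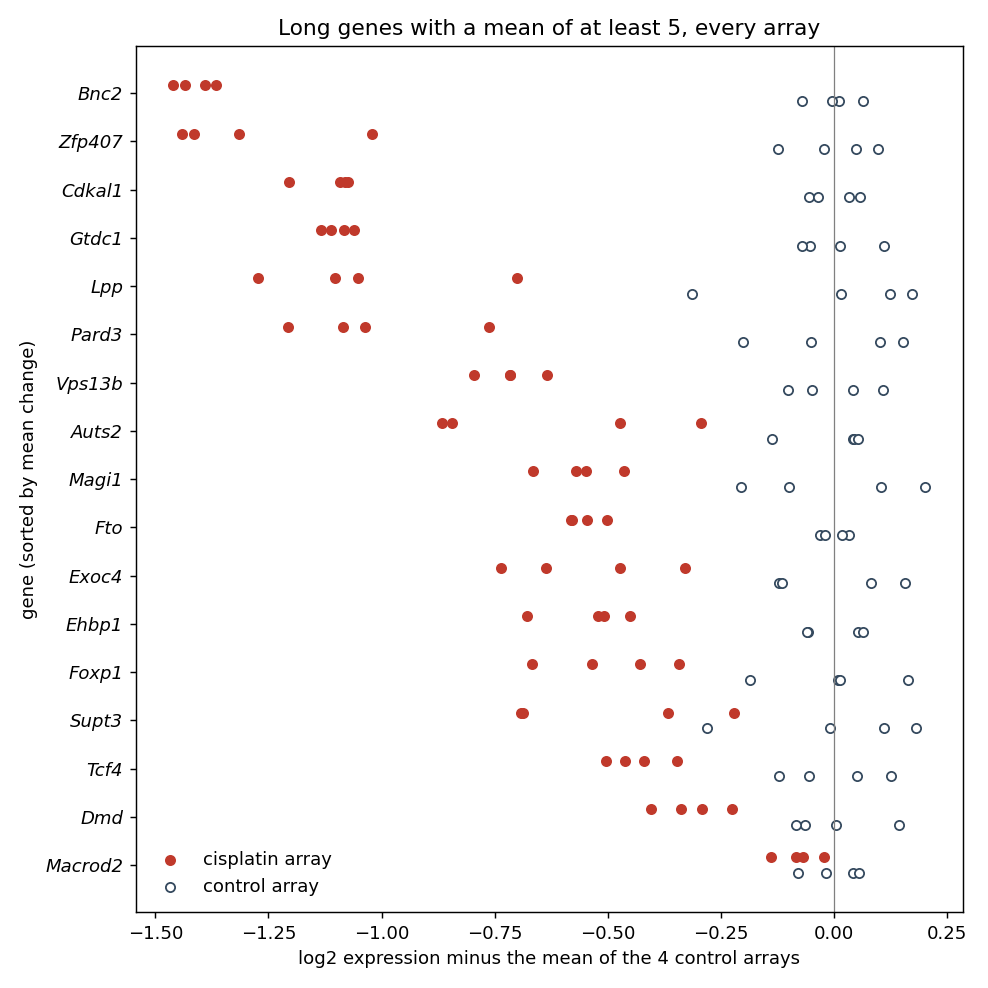
Each row is 1 of the 17 long genes with a mean of at least 5, and each point is 1 array, plotted as its log2 value minus the mean of the gene's 4 control arrays (filled red, cisplatin, 4 arrays; open, control, 4 arrays). The cisplatin points lie left of every control point for 15 genes and mix with them for Supt3 and Macrod2. Of all 8070 genes with a mean of at least 5, the groups did not overlap, in either direction, for 3222.

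The transcription, chromatin and RNA regulators held the largest 2 falls, those of Bnc2 and Zfp407. Of 12 such genes, all measured, 8 were lower, where 7.69% of all genes were, and 4 did not pass the test, and the median change was -0.46. Bnc2, which encodes the zinc finger protein basonuclin 2, had log2 values of 6.87, 6.93, 6.84 and 6.91 on cisplatin arrays 3 to 6. On control arrays 3 to 6 it had 8.23, 8.31, 8.36 and 8.29. The arrays of each group lay close together, and the groups were more than 1 apart. The change was -1.41 ± 0.05 (log2 fold change ± SE, 4 arrays against 4; limma adjusted p = 1.33e-06).

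Zfp407, which encodes a zinc finger protein, had 5.98, 6.37, 5.95 and 6.08 with cisplatin, against 7.27, 7.37, 7.44 and 7.49 in the controls. Cisplatin array 4 was the highest of its group and still lay well below the controls. The change was -1.30 ± 0.10 (limma adjusted p = 3.41e-05).

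Fto, the gene of an RNA demethylase that removes methyl groups from adenosine, had 6.38, 6.41, 6.38 and 6.46 with cisplatin, against 6.99, 6.92, 6.98 and 6.94 in the controls. Both groups were tight and did not overlap, and the change was -0.55 ± 0.05 (limma adjusted p = 7.18e-05). Auts2, known for its part in brain development, had 5.25, 4.67, 4.70 and 5.07 with cisplatin, against 5.58, 5.59, 5.59 and 5.40 in the controls. Its cisplatin arrays were spread more widely than its controls, yet did not overlap them, and the change was -0.62 ± 0.12 (limma adjusted p = 0.00645).

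Foxp1, a forkhead transcription factor gene, had 7.73, 7.62, 7.49 and 7.82 with cisplatin, against 8.17, 7.97, 8.17 and 8.32 in the controls, a change of -0.49 ± 0.09. Tcf4, which encodes an E protein of the helix-loop-helix class, had 6.83, 6.91, 6.87 and 6.99 with cisplatin, against 7.28, 7.38, 7.21 and 7.46 in the controls, a change of -0.43 ± 0.07. The groups did not overlap for either gene (limma adjusted p = 0.00387 for Foxp1 and 0.00157 for Tcf4).

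Supt3, a subunit gene of the SAGA coactivator complex, had 5.69, 5.84, 5.37 and 5.37 with cisplatin, against 6.17, 6.24, 6.05 and 5.78 in the controls. Cisplatin array 4 was above control array 6, so the groups overlapped. The change was -0.49 ± 0.13 (limma adjusted p = 0.0246), and it no longer passed with any 1 of cisplatin arrays 5 and 6 or control arrays 3, 4 and 5 left out (highest adjusted p = 0.0705). Atxn1, the dim gene of ataxin, averaged 3.25 ± 0.13 on cisplatin arrays and 3.51 ± 0.04 on control arrays (SD, n = 4 each), a change of -0.26 ± 0.07 (limma adjusted p = 0.0279). Leaving out any 1 of cisplatin arrays 3, 5 and 6 or control arrays 3, 4 and 5 ended this call (highest adjusted p = 0.0723), as did averaging its probe sets (adjusted p = 0.398).

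The other 4 of these regulators lay between 2.70 and 3.74 in mean log2 value and did not pass the test. They were the nuclear receptor gene Rora, Nfia of the nuclear factor I family at 0.06 ± 0.05, the SoxD factor gene Sox5 at 0.10 ± 0.06 and the RNA-binding protein gene Rbms3 at -0.10 ± 0.09. Rora, the brightest of them, had 3.94, 3.72, 3.58 and 3.82 with cisplatin, against 3.75, 3.68, 3.67 and 3.74 in the controls, and the groups overlapped (0.05 ± 0.08). Their limma adjusted p-values ran from 0.299 for Sox5 to 0.703 for Rora.

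Of the 7 measured of 8 adhesion, polarity and receptor phosphatase genes, 4 were lower and 3 did not pass, with a median of -0.56 (7.69% of all genes were lower). Lpp, which encodes a LIM domain protein of focal adhesions, had 5.65, 6.00, 5.60 and 5.43 with cisplatin, against 6.88, 6.83, 6.72 and 6.39 in the controls. Array 6 was the lowest in either group, and the groups stayed apart. The change was -1.03 ± 0.13 (limma adjusted p = 0.000572).

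Pard3, a scaffold of the complex that sets cell polarity, had 6.28, 6.00, 5.83 and 5.95 with cisplatin, against 6.99, 7.14, 7.19 and 6.84 in the controls. Every cisplatin array was below every control array, and the change was -1.02 ± 0.11 (limma adjusted p = 0.000159). Its dim paralog Pard3b had 3.38, 3.78, 3.62 and 3.59 with cisplatin, against 3.50, 3.85, 3.71 and 3.48 in the controls. These groups overlapped, at -0.04 ± 0.10 (limma adjusted p = 0.838), and the difference between the paralogs was not tested. Another probe set of Pard3b, with a mean of 3.30, was at -0.23 ± 0.07 (limma adjusted p = 0.0578 with every probe set tested). A further one, with a mean of 2.72, was at -0.17 ± 0.09 (limma adjusted p = 0.285). Magi1, a scaffold of cell junctions, had 5.28, 5.38, 5.40 and 5.48 with cisplatin, against 6.15, 6.05, 5.85 and 5.74 in the controls. The groups did not overlap, and the change was -0.56 ± 0.09 (limma adjusted p = 0.00205).

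Among the receptor tyrosine phosphatase genes, Ptprg had 3.97, 4.11, 4.35 and 4.43 with cisplatin, against 5.28, 5.26, 5.37 and 4.95 in the controls. The groups did not overlap, although the mean put the gene in the dim class, and Ptprg was just under 2-fold lower (limma adjusted p = 0.00035). The change was -0.13 ± 0.14 for Ptprk and -0.06 ± 0.06 for Ptprd, with adjusted p-values of 0.587 and 0.522. Ptprd lay below background in both groups. Another probe set of Ptprk, with a mean of 2.95, fell by 0.38 on the log2 scale (limma adjusted p = 0.00791 with every probe set tested).

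Of the 8 kinase, trafficking and enzyme genes 6 were lower, where 7.69% of all genes were, with a median of -0.63. Cdkal1, which encodes an enzyme that modifies transfer RNA, had 5.41, 5.43, 5.42 and 5.30 with cisplatin, against 6.54, 6.45, 6.56 and 6.47 in the controls. The groups were about 1 apart at their nearest arrays, and the change was -1.11 ± 0.06 (limma adjusted p = 5.83e-06). Gtdc1, named as a glycosyltransferase-like protein, had 5.95, 5.98, 5.90 and 5.93 with cisplatin, against 6.98, 6.97, 7.15 and 7.05 in the controls. Its change of -1.10 ± 0.06 (limma adjusted p = 5.89e-06) was close to that of Cdkal1.

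Of the trafficking genes, Vps13b, whose product works at the Golgi, had 5.69, 5.61, 5.61 and 5.53 with cisplatin, against 6.43, 6.23, 6.28 and 6.37 in the controls. The groups did not overlap, and the change was -0.72 ± 0.06 (limma adjusted p = 7.3e-05). Ehbp1, of endocytic recycling, had 5.68, 5.61, 5.45 and 5.62 with cisplatin, against 6.18, 6.07, 6.07 and 6.20 in the controls, a change of -0.54 ± 0.06 (limma adjusted p = 0.000358). Here too the groups did not overlap. Tbc1d5, a regulator of Rab GTPases that works with the retromer, had 3.94, 3.65, 4.24 and 3.98 with cisplatin, against 4.98, 4.77, 5.32 and 4.95 in the controls. The groups did not overlap, and it was the dim gene with the largest fall, at -1.05 ± 0.14 (limma adjusted p = 0.000595). Its 3 other probe sets, with means from 2.51 to 2.99, were at -0.13, -0.01 and -0.02 and did not pass, and the average of its probe sets was at -0.30 (adjusted p = 0.00797).

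Prkce, the gene of protein kinase C epsilon, averaged 3.15 ± 0.10 on cisplatin arrays and 3.69 ± 0.34 on control arrays (SD, n = 4 each), a change of -0.54 ± 0.15 (limma adjusted p = 0.029). Its cisplatin arrays lay below its controls, but with any 1 of cisplatin arrays 3, 5 and 6 or control arrays 3 and 4 left out it did not pass (highest adjusted p = 0.0681), nor did it by the ordinary t statistic (adjusted p = 0.104). A second probe set of Prkce, nearly as bright with a mean of 3.40, was at -0.08 ± 0.06 (limma adjusted p = 0.447 with every probe set tested), and the average of both was at -0.31 (adjusted p = 0.0255). The related Prkca had 3.34, 3.98, 3.81 and 4.09 with cisplatin, against 4.14, 4.00, 4.01 and 4.26 in the controls. Cisplatin array 6 lay among the controls, and the change was -0.30 ± 0.15 (limma adjusted p = 0.2). Mad1l1, of the spindle checkpoint, was at -0.23 ± 0.15 (limma adjusted p = 0.352).

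The genes best known for their fragile sites made up the dimmest group. Of the 12 measured of 14, 9 had a mean under 5, 2 were lower and 10 did not pass the test, with a median of -0.09. Over all genes, 7.69% were lower, 13.8% of those with a mean of at least 5 and 2.24% of dimmer ones. Exoc4, a subunit gene of the exocyst that tethers secretory vesicles, had 7.96, 8.27, 8.12 and 7.86 with cisplatin, against 8.47, 8.68, 8.75 and 8.48 in the controls. The highest cisplatin array lay just below the lowest control array, and the change was -0.54 ± 0.10 (limma adjusted p = 0.00389).

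Dmd, the gene of dystrophin and the longest of the list, had 7.62, 7.44, 7.55 and 7.50 with cisplatin, against 7.85, 7.78, 7.99 and 7.76 in the controls. The groups did not overlap, and the change of -0.31 ± 0.07 (limma adjusted p = 0.00866) was the smallest among the 16 bright genes that were lower. Averaging its probe sets ended the call (-0.19, adjusted p = 0.0584). Macrod2, which encodes an enzyme that removes ADP-ribose from proteins, had 7.10, 7.09, 7.03 and 7.15 with cisplatin, against 7.09, 7.15, 7.21 and 7.23 in the controls. These groups overlapped, and at -0.08 ± 0.05 (limma adjusted p = 0.381) it was the only one of the 17 brighter genes that did not pass the test. Its level rests on a probe set of the kind that can match several transcripts, while its 2 other probe sets had means of 2.52 and 2.51, below background.

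Fhit, a nucleotide hydrolase gene and the classic human fragile-site gene, had 3.21, 3.27, 3.47 and 3.08 with cisplatin, against 3.15, 3.09, 3.05 and 3.37 in the controls. The groups overlapped near background, and the change was 0.09 ± 0.10 (limma adjusted p = 0.573). Wwox, an oxidoreductase gene with WW domains, had 3.27, 3.91, 3.27 and 3.22 with cisplatin, against 3.45, 3.81, 3.54 and 3.86 in the controls, a change of -0.25 ± 0.16 (limma adjusted p = 0.333). Cisplatin array 4 stood above the other 3, and without it the change was -0.41 (adjusted p = 0.0266).

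The remaining fragile-site genes had means from 2.28 to 3.05 and changes between -0.19 and 0.09. They were the synaptic genes Dlg2, Lsamp and Il1rapl1, the receptor gene Lrp1b, the complement-domain gene Csmd1, the catenin gene Ctnna3 and Dpyd, the first enzyme of pyrimidine breakdown. The closest to the threshold was Dlg2 at -0.18 ± 0.08 (limma adjusted p = 0.172).

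Other probe sets of the same genes give a further reading of the same RNA on the same arrays, which is not a replicate of the treatment. There were 78 such probe sets for 32 of the genes. With each of 28898 probe sets tested on its own, 27 of the 78 were lower, where 7.69% of all probe sets were. None was higher, where 8.6% of all were, either adjusted or at an unadjusted p under 0.05. Of the 15 with a mean of at least 5, 14 were lower, with changes from -1.13 to -0.19, where 14.7% of all probe sets of that brightness were lower. The 1 that did not pass belongs to Exoc4 (-0.29 ± 0.11, limma adjusted p = 0.0888).

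**Figure D2:**
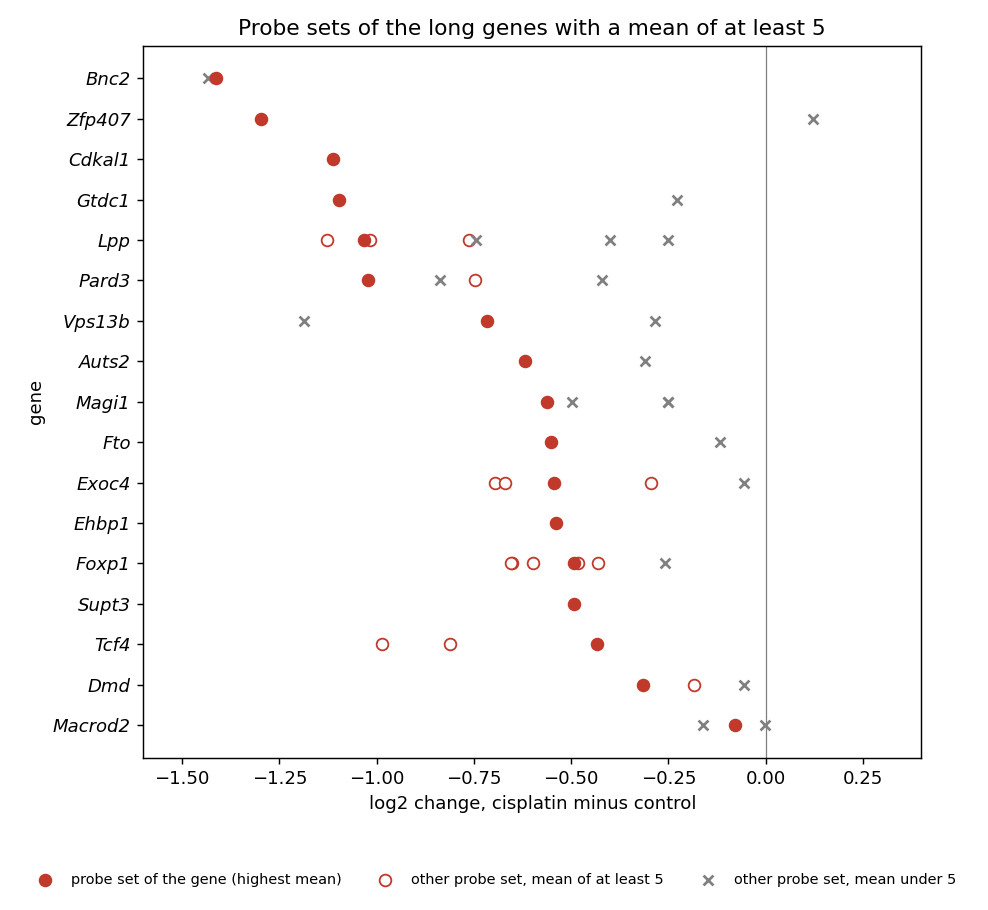
Log2 change, cisplatin minus control, of every probe set of the 17 genes with a mean of at least 5, 1 row per gene, with the gene's probe set filled, others with a mean of at least 5 open and dimmer ones as crosses. The open points all lie left of 0, and the 1 cross to the right of 0 is the second probe set of Zfp407 at 0.12.

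Within a gene the size of the fall differed between probe sets. All 6 brighter probe sets of Foxp1 were lower, by between -0.65 and -0.43, and the 4 of Lpp lay between -1.13 and -0.76. For Tcf4 the brightest gave -0.43 and the other 2 gave -0.99 and -0.81. Both probe sets of Bnc2 were lower, at -1.41 and, for one with a mean of 4.94, at -1.43. The second probe set of Vps13b, with a mean of 4.74, gave -1.19 against -0.72 for the first. By contrast, the second probe set of Zfp407, with a mean of 2.67, was at 0.12 ± 0.08 (limma adjusted p = 0.352). Averaged over all their probe sets, Zfp407 was at -0.59, Gtdc1 at -0.66, Fto at -0.33 and Tcf4 at -0.74, and all 4 still passed. Without probe sets that can match several transcripts, Auts2 was at -0.31 (adjusted p = 0.0236).

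Over the 17 brighter genes the rank correlation of span and change was 0.12 and Pearson's r with log span 0.45, and over the 14 of them up to 1000 kb they were -0.32 and -0.07. Over the 22 dimmer genes they were 0.51 and 0.45, so that the longer of these genes fell less. Span and brightness were not separated there. Ptprd and Lsamp, at 2271 and 2197 kb, had means of 2.87 and 2.89. Ptprg and Tbc1d5, at 689 and 448 kb, had 4.72 and 4.48, though Mad1l1, at 313 kb, had 2.92. The part of brightness in these 2 values was not tested. Over all 8057 genes with a mean of at least 5 and a span the sign was the opposite, with -0.40 and -0.36, and over the 8878 dimmer ones with -0.11 and -0.12. These are descriptions across genes, which share arrays and normalization and are not independent. The largest falls, those of Bnc2 and Zfp407, came at 409 kb and 382 kb, while the 3 brighter genes over 1000 kb, Auts2, Dmd and Macrod2, changed by -0.62, -0.31 and -0.08. Foxp1 had 3 listed starts, the nearest 103 kb from its end, Lpp had 2 and the nearer was 271 kb from its end, and both of Magi1 were 238 kb from its end. How far the starts in use bear on the changes was not tested.

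**Figure D3:**
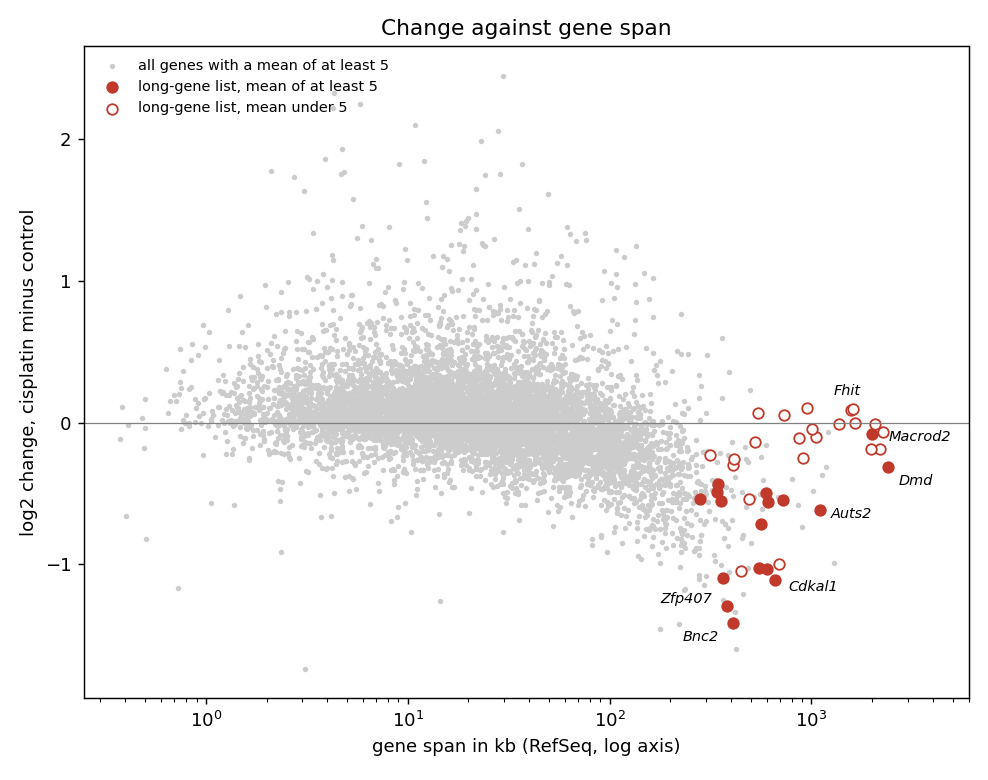
Log2 change, cisplatin minus control, against gene span in kb on a log axis, for all genes with a mean of at least 5 (grey) and the long-gene list (red, filled where the mean is at least 5 and open where it is under 5). The filled points lie below 0, from -0.08 for Macrod2 to -1.41 for Bnc2, while the open points lie mostly near 0.

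Genes as long that were not on the list gave the following counts. Of 87 genes with a span of at least that of Ehbp1 and a mean of at least 5, 65 were lower and 5 higher, with a median change of -0.51. Of the 394 dimmer ones, 47 were lower and 3 higher, with a median of -0.06. Among all genes with a mean of at least 5, 13.8% were lower and 17.1% higher, and among all dimmer genes 2.24% and 6.71%. The difference between the shares, 94.1% of the 17 and 74.7% of the 87, was not tested.

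Across all genes with a mean of at least 5, the share that was lower with cisplatin climbed with span up to 1000 kb. It was 4.34% of 2004 genes up to 10 kb, 5.24% of 2767 from 10 to 30 kb and 17.3% of 2439 from 30 to 100 kb. It reached 50.7% of 760 genes from 100 to 300 kb and 80.8% of 78 from 300 to 1000 kb, 13 of which are on the list. Of the 9 genes over 1000 kb, 3 on the list, 44.4% were lower. The share that was higher ran the other way, with 24.2% up to 10 kb and 5.13% from 300 to 1000 kb. Among dimmer genes 0.677% were lower up to 10 kb and 13.5% from 300 to 1000 kb. The median change of the brighter genes was 0.09 up to 10 kb and -0.55 from 300 to 1000 kb. Centring the arrays lowers each change by 0.13, which takes the median of the shortest genes below 0. Of the 29 genes with a mean of at least 5 that were lower by at least 2-fold, 18 spanned 300 to 1000 kb, and 6 of these are on the list.

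**Figure D4:**
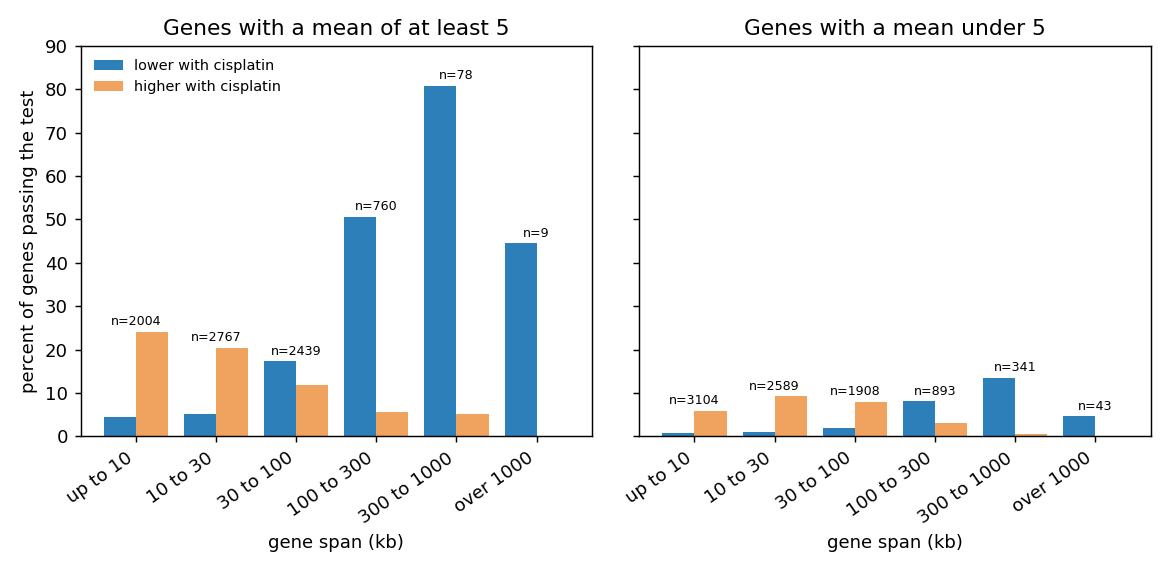
Percent of genes that passed the test in each direction by class of gene span (blue, lower with cisplatin; orange, higher with cisplatin), for genes with a mean of at least 5 (left) and under 5 (right), with the number of genes above each class. The blue bar is highest from 300 to 1000 kb in both panels, at 80.8% and 13.5%.

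A second list of 60 long or fragile-site genes was written from textbook knowledge, but with earlier results of these data known. Its counts too are no independent evidence of a direction. Of the 60 genes, 48 were measured. Of these, 17 were lower and none higher (2 were higher at an unadjusted p under 0.05), with a median of -0.14, where 7.69% of all genes were lower and 11.6% higher. The formin gene Diaph2 was at -1.01 ± 0.06 and the teneurin gene Tenm3, which spans 1297 kb, at -0.99 ± 0.08. In the dim class, the recombination gene Rad51b (mean 3.60) was at -0.80 ± 0.11. Tcf7l2, a Wnt pathway transcription factor gene that is also dim (mean 4.87), was at -0.69 ± 0.09. The limma adjusted p-values of Diaph2, Tenm3, Rad51b and Tcf7l2 lay between 1.06e-05 and 0.000698. Of the 14 with a mean of at least 5, 10 were lower, where 13.8% of all genes of that brightness were.

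Scaling moved the counts. Centring each array on its median lowered every change by 0.13. It raised the count of lower genes on the list to 24, still with none higher, and over all genes it gave 3925 lower and 1087 higher, against 1314 and 1989 without it. The median change over all genes was already 0.01 uncentred, so centring moved the median gene below 0. The calls gained by centring include this shift and are no separate evidence of a fall. Macrod2, Dlg2, Ptprd and Prkca did not pass otherwise and did with centring (-0.21, -0.31, -0.19 and -0.43, adjusted p from 0.0220 to 0.0392). Leaving out each array in turn gave between 17 and 21 lower genes on the list, and of the brighter ones the call of Supt3 alone was lost.

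The arrays of a group correlated at 0.997 to 0.998. The 3′ minus 5′ log2 difference of Actb, a measure of RNA integrity, ran from 0.52 to 0.53 with cisplatin and from 0.50 to 0.57 in the controls. Of 8 ES cell markers 7 were measured, with means from 9.42 to 13.41, and 4 (Esrrb, Nanog, Utf1 and Zfp42) were lower. Their mean level per array was 11.22 to 11.28 with cisplatin and 11.44 to 11.47 in the controls. Of 10 fibroblast markers, which feeder cells would carry, 6 lay below background and Thy1 was higher, with a mean per array of 2.99 to 3.38 with cisplatin and 3.03 to 3.24 in the controls. Of 7 neuron markers measured of 8, Map2 and Snap25 lay below background. Syt1 had a mean of 3.19, while Gap43, Tubb3 and Stmn2 had means of 6.41, 7.67 and 11.71. Rbfox3 was higher and the other neuron markers did not pass. The neuron list had a mean per array of 5.59 to 5.68 with cisplatin and 5.61 to 5.68 in the controls. The part of these markers in the results was not tested.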

How the data were processed

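Mouse ES cells were measured on 8 arrays, 4 with cisplatin and 4 with solvent, grouped by their titles. The table deposited by the authors holds log2 values of 45141 probe sets. RMA and limma are the tools named, per the submitters' processing notes, with no version in the sources used here. As RMA brings all arrays to 1 distribution, it hides a shift common to all genes. Labelling primed at the 3′ end, per the labels' protocols, so probe sets mostly read the ends of finished transcripts.

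Of the probe sets, 28898 have 1 gene in the platform annotation, giving 17098 genes, of which 16937 matched RefSeq (GRCm38.p6) for symbol and span; 551 probe sets with several genes were left out. That assembly serves for names, spans and promoters only. The groups were compared with lmFit and eBayes of limma 3.58.1 (R 4.3.3). The threshold was 0.05 on p-values adjusted by Benjamini-Hochberg over the 17098 genes. The median SE of a log2 change was 0.08. Every measured gene of the list is named. Array values are given for brighter genes that passed with a change of at least 0.5, as the naming rule sets, and, chosen after their values were seen, for Dmd, Fhit, Wwox, Foxp1, Tcf4, Supt3, Ptprg and Tbc1d5. The rule also gives them for the 4 brightest genes that did not pass. Members, lists and tests were chosen with earlier results of these data known. Plots were made in Python 3.11.15 (matplotlib 3.10.9). Alternatives changed the probe set, normalization, centring, variance model, threshold, replicate block or arrays used.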

Additional observations from a re-analysis of the deposited data

Results flagged for a closer look

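Within each group of 4 arrays, the gap between an extreme array and its nearest neighbour was divided by the group's range for each of the 39 genes. Of 78 groups 6 exceeded Dixon's critical value, where chance alone passes about 1 in 20. Cisplatin array 6 was low for Cdkal1 (0.865; 5.30, against 5.41 to 5.43 on the others) and for Ptprk (0.835; 2.90, against 3.14 to 3.19). Cisplatin array 4 was high for Wwox (0.921; 3.91, against 3.22 to 3.27) and low for Nfia (0.844; 2.62, against 2.76 to 2.79). Control array 4 was high for Nfia (0.95; 2.71, against 2.66), and control array 6 was low for Auts2 (0.946; 5.40, against 5.58 to 5.59). Of these 5 genes, the call changed without the array that stood apart for Wwox, which then passed (-0.41, adjusted p = 0.0266). The call of Cdkal1 and that of Auts2 held without any 1 array.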

How the results depend on the processing

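The 11 alternatives covered the probe set of a gene, dim genes, normalization, centring, the variance model, the threshold, the replicate number as a block and each array left out. Over the genes of the list and these settings 678 values were compared: 648 kept their side of the threshold, 25 lost the call, 5 gained it and none that passed in either setting changed sign. In 25 of the 648 the sign differed with neither value passing. Centring gave 3925 genes lower, 1087 higher and 998 lower among those over 100 kb, against 1314, 1989 and 572. Since the uncentred median change over all genes was 0.01, the centred counts include a downward shift of 0.13 in every gene. An adjusted p under 0.01 gave 742 lower and 1113 higher. The lower genes on the list numbered 17 with that threshold, 17 with the ordinary t statistic, 18 with averaged probe sets and 24 with centring; the brighter ones numbered 15 to 17 under every alternative. Leaving out each array gave 1037 to 1246 lower and 1580 to 1871 higher genes. With the replicate block 20 genes of the list were lower, as without it, and over all genes 1336 were lower and 2111 higher. Deviations of same-numbered arrays correlated at 0.06 to 0.20, and each cisplatin array correlated best with the control of its own number, a hint from the data that the labels do not explain. Besides the number of arrays, dim signal limits the reading. In both groups 11 of the 39 genes lay below 3.10, the mean of background probes with 24 G or C. The same held for 5359 of all 17098 genes, so this limit is not particular to the list.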

Other observations

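Few of the brighter long genes went against the direction. Among the 87 brighter genes that are not on the list but as long, 5 were higher with cisplatin. Of all genes with a mean of at least 5, 17.1% were higher. Among the 394 dimmer genes as long and not on the list, 3 were higher. The 5 brighter ones are named here, after their values were seen. Mtus2, which encodes a microtubule-associated protein, averaged 6.67 ± 0.11 on cisplatin arrays and 6.08 ± 0.20 on control arrays (SD, n = 4 each), a change of 0.60 ± 0.10 (limma adjusted p = 0.00257). Pid1 rose by 0.48 ± 0.13, Palld, the gene of the actin-binding protein palladin, by 0.36 ± 0.06, Shroom3, a regulator of apical constriction, by 0.26 ± 0.06 and Aopep, an aminopeptidase gene, by 0.17 ± 0.05. The groups did not overlap for any of the 5, which held in either direction for 3222 of all 8070 genes of that brightness. The limma adjusted p-values of the 5 ran from 0.00158 to 0.0289. With centring each of these changes is 0.13 smaller.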
